A study of Rattus norvegicus with 4 samples.

Results

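The immediate early genes examined here were 10 genes whose transcription neurons switch on within a short time of synaptic activity: Fos, Fosb, Junb, Egr1, Egr2, Egr3, Arc, Nr4a1, Nr4a3 and Npas4. They were taken as all probe sets (the groups of oligonucleotides that report a transcript on the array) to which the platform annotation gave a single gene symbol, that symbol being a member. This rule found 13 probe sets of 9 genes among 31042 probe sets of the array, and none for Npas4. No measured value entered the rule, but the members and the lists described later were chosen with earlier results of these data known. Nr4a3 had 3 probe sets, Fos and Egr2 had 2 each, and the other 6 genes had 1 each.

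The samples were hippocampi of male Wistar rats, aged 16 months at dissection. Stressed rats had entered a 4-week battery of chronic unpredictable mild stress at 15 months of age, and nonstressed controls were rats of matched age kept in standard housing. Each group gave 2 arrays, and every array carried total RNA pooled from 3 rats. All rats were anesthetized with ketamine and xylazine and dissected 4 h before their dark phase began, and the interval between the last stressor and dissection was not given in the sources used here. The pools are named as biological replicates in the study's design, so each p below rests on the spread between pools, in part borrowed by limma from other probe sets of like brightness, and not on the spread between single rats.

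Most of these genes encode transcription factors. Fos, Fosb and Junb are leucine zipper proteins that bind DNA in pairs as the transcription factor AP-1, the Egr proteins are zinc finger transcription factors, and the Nr4a proteins are nuclear receptors that act without a known natural ligand. Npas4 is a basic helix-loop-helix factor of neurons that pairs with Arnt proteins. Arc is no transcription factor. Its mRNA travels into dendrites, where the protein promotes the removal of AMPA-type glutamate receptors from synapses. In the hippocampus these transcripts rise briefly after exploration, learning, seizures or acute stress, and some, such as Egr1, are also plentiful at rest. Their induction runs through calcium and ERK signals to CREB, which binds the cAMP response element (CRE), and to serum response factor, which binds the CArG box with its Elk partners.

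The promoters of Egr1, Egr2 and Nr4a1 are shown as examples. All of them carry the CRE core TGACG, and those of Egr1 and Egr2 also carry a CArG box. RefSeq windows on the assembly GRCr8, from 250 bases before to 50 bases after the annotated start, were at hand for 6 of the 10 genes, and none was printed for Fos, Arc, Egr3 or Nr4a3. Capitals mark each match to the CRE core TGACG on either strand and each CArG box. Egr1 lies at chr18:26736828-26737127 on the plus strand, Egr2 at chr20:21054392-21054691 on the minus strand and Nr4a1 at chr7:134259888-134260187 on the plus strand.
Egr1: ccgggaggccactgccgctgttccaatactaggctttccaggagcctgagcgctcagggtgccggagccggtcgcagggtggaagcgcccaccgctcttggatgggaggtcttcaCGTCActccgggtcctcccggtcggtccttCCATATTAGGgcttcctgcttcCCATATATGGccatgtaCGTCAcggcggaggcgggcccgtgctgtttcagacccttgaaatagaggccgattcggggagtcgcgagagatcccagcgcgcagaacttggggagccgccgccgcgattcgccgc
Egr2: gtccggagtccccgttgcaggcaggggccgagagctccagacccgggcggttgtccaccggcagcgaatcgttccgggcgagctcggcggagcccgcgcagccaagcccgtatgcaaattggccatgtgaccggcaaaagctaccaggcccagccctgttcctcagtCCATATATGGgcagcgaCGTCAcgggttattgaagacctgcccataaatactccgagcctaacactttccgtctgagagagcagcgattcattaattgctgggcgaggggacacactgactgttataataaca
Nr4a1: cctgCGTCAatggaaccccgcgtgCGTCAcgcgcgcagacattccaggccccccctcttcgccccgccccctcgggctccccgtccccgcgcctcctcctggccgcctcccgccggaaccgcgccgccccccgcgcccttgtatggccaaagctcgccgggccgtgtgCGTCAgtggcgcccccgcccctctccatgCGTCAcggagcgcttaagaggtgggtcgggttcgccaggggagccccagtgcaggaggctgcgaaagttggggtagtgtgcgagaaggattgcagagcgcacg

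Egr1 held 2 CArG boxes, which began 105 and 83 bases before the start, and 2 CRE cores. Egr2 held a single CArG box, likewise 83 bases before the start, and a single CRE core. Nr4a1 held 4 CRE cores and no CArG box, Junb held 1 CRE core, and the windows of Fosb and Npas4 held neither motif. Of 33469 promoter windows of this length, 1.64% contained a CArG box and 21.2% contained the CRE core. The full palindrome TGACGTCA, which contains the core, was found in 1.83% of all windows and in none of these 6. Nor did these windows hold the Egr site GCGTGGGCG (0.544% of all windows), the AP-1 site TGACTCA (4.63%) or the Nr4a site AAAGGTCA (1.43%), each searched on both strands. A match of letters is a description of the sequence and does not show that a factor was bound.

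The contrast between stressed rats and nonstressed controls was tested on log2 signals with limma, with p-values adjusted by Benjamini-Hochberg over all 14791 probe sets that reached a signal of 100 on at least 2 of the 4 arrays. Differences are log2 signal of stressed rats minus that of nonstressed controls. Of the 13 member probe sets, 9 from 8 genes passed this signal minimum and were tested, and 4 were too dim. At adjusted p under 0.05, 4 of the 9 tested probe sets fell in stressed rats, those of Fos, Nr4a3, Arc and Egr1, against 11.8% of all tested probe sets. None rose, against 12% of all tested probe sets. Nr4a3 fell at 1369067_at only, and its other tested probe set did not pass. At unadjusted p under 0.05, the same 4 were lower and 2 were higher, those of Fosb and Nr4a1. The median difference of the 9 probe sets was -0.22, and that of all tested probe sets was 0.02. None of the 9 met the thresholds of the study, at least 2-fold with unadjusted p under 0.05, applied here to p from limma. Of all tested probe sets, 1.6% met them.

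In all 9 tested probe sets the signals of the 2 groups did not overlap, as in 64.4% of all tested probe sets. The stressed arrays were the lower ones in 6 of them, against 29.5% of all tested probe sets, and the higher ones in 3, against 34.9%. For a single probe set, the smallest two-sided p that an exact permutation test can reach with 2 arrays in each group is 0.333. The calls of Fos and Nr4a3 were kept when each array was left out in turn, while those of Arc and Egr1 were not. In whole hippocampus, fewer expressing cells and less RNA per cell cannot be told apart.

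**Figure D1:**
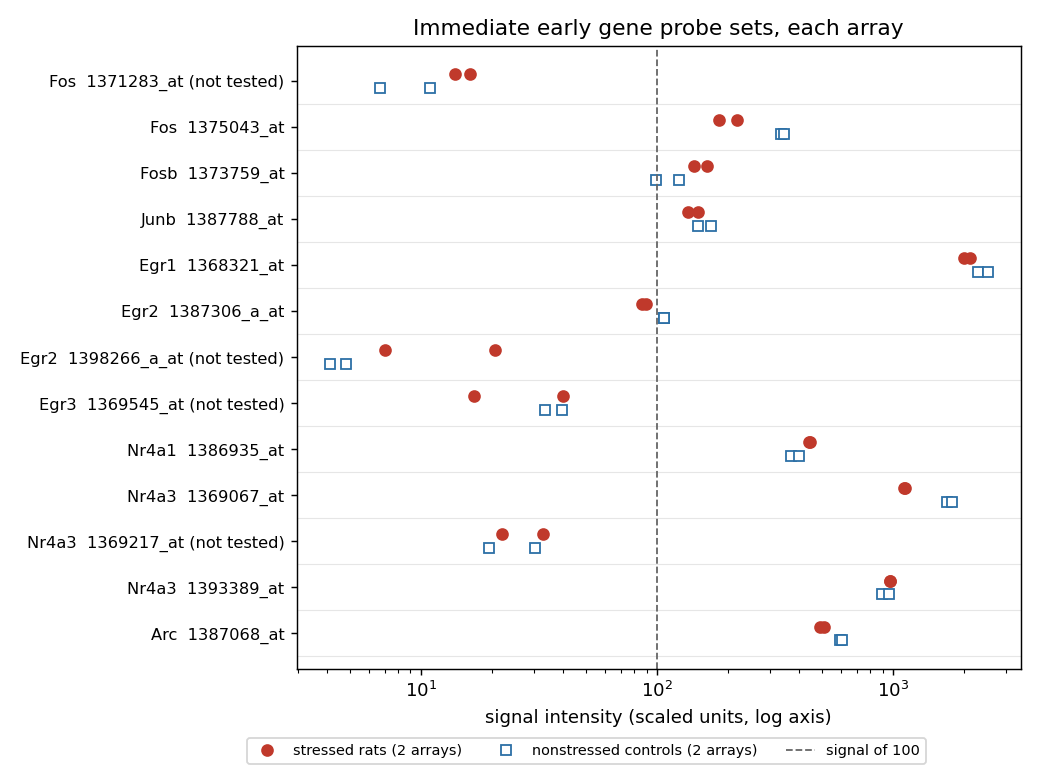
Signal intensity (log axis, scaled units) of each of the 13 probe sets on the 2 stressed arrays (filled circles) and the 2 control arrays (open squares), with the signal minimum of 100 as a dashed line. Fos 1375043_at lies at 183.3 and 217.1 in stressed rats and 334.2 and 343.1 in nonstressed controls, and the 4 probe sets marked as not tested stay under 100 on every array.

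Fos encodes the best known AP-1 subunit and serves widely as a marker of recently active neurons. Its tested probe set, 1375043_at, had signals of 183.3 and 217.1 in stressed rats, against 334.2 and 343.1 in nonstressed controls. Both stressed arrays lay far below both control arrays, and the stressed arrays differed more between themselves than the control arrays did. The mean was 200.2 ± 23.9 in stressed rats and 338.65 ± 6.29 in nonstressed controls (SD, n = 2 arrays each). The log2 difference was -0.76 (standard error 0.11, 95% interval -1.02 to -0.51, adjusted p = 0.00299 from limma), so that stressed rats had 0.589 times the control level as a ratio of geometric means. For comparison, the 500 tested probe sets nearest in brightness had a median log2 difference of 0.106 between the 2 arrays of a group, without regard to sign. Fos was the only tested member whose interval reached a 2-fold change.

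The second probe set of Fos, 1371283_at, had signals of 16.1 and 13.9 in stressed rats, against 10.9 and 6.7 in nonstressed controls. These signals were higher in stressed rats, opposite to the brighter probe set, but they were far below the minimum of 100. When dim probe sets were kept in the test, this difference had an adjusted p of 0.511 (limma).

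Fosb, whose long-lived splice form builds up under repeated stimulation, had a difference of the opposite sign at its only probe set. Signals of 1373759_at were 162.9 and 142.6 in stressed rats, against 99.0 and 123.4 in nonstressed controls. The 2 control arrays differed by -0.32 on the log2 scale (replicate 1 minus replicate 2), which is large beside the log2 difference of 0.46 between the groups (standard error 0.16, 95% interval 0.09 to 0.83). The difference did not pass (adjusted p = 0.0711 from limma). It ranged from 0.30 without control replicate 1 to 0.62 without control replicate 2. Which splice forms this probe set reads is not stated in the files.

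Junb encodes a partner of Fos proteins in AP-1. Its probe set 1387788_at had signals of 135.0 and 148.8 in stressed rats, against 169.3 and 149.1 in nonstressed controls. The higher stressed array and the lower control array were nearly equal. The log2 difference of -0.16 did not pass (95% interval -0.47 to 0.14, adjusted p = 0.406 from limma).

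Egr1, a zinc finger factor with a role in the late phase of synaptic plasticity, had a small difference. Signals of 1368321_at were 2114 and 1997 in stressed rats, against 2278 and 2508 in nonstressed controls. The groups did not overlap, but the lower control array lay nearer to the higher stressed array than to the other control array. The log2 difference was -0.22 (standard error 0.06, 95% interval -0.36 to -0.08, adjusted p = 0.0331 from limma), or 0.86 times the control level. This call was lost without stressed replicate 2 (log2 difference -0.18, adjusted p = 0.134) and without control replicate 2 (-0.15, adjusted p = 0.186), and with the replicate number as a block (adjusted p = 0.0724). It was also lost with no filter (adjusted p = 0.0766) and without the intensity trend (adjusted p = 0.129, all from limma).

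Egr2, whose promoter window above holds a CArG box at the same distance as that of Egr1, is best known from myelinating Schwann cells. Its brighter probe set, 1387306_a_at, had signals of 86.3 and 89.5 in stressed rats, against 106.3 and 106.9 in nonstressed controls. The arrays of each group were very close to each other, yet both stressed signals were under 100 and the log2 difference of -0.28 did not pass (95% interval -0.62 to 0.06, adjusted p = 0.21 from limma). The test takes most of its spread from other probe sets of this brightness, whose arrays within a group differed by a median of 0.186 on the log2 scale, without regard to sign. Without an intensity trend in that shared spread the adjusted p of Egr2 was 0.0498.

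The dim probe set of Egr2, 1398266_a_at, had signals of 20.5 and 7.0 in stressed rats, against 4.8 and 4.1 in nonstressed controls. Its stressed arrays differed from each other by 1.55 on the log2 scale, and the group difference was 1.43. Egr3, a further Egr factor of neurons, was measured by 1369545_at at 40.0 and 16.7 in stressed rats, against 33.3 and 39.5 in nonstressed controls. These groups overlapped. When dim probe sets were kept in the test, the adjusted p was 0.364 for this probe set of Egr2 and 0.616 for Egr3 (limma).

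Nr4a3 gave the smallest p among the members, at 1 of its 2 tested probe sets. Signals of 1369067_at were 1122 and 1113 in stressed rats, against 1684 and 1773 in nonstressed controls. The arrays of each group were close to each other, and the groups were well apart. The mean was 1117.5 ± 6.51 in stressed rats and 1728 ± 62.7 in nonstressed controls (SD, n = 2 arrays each). The log2 difference was -0.63 (standard error 0.05, 95% interval -0.74 to -0.51, adjusted p = 1.94e-04 from limma), or 0.647 times the control level. Probe sets of this brightness had a median log2 difference of 0.0545 between the arrays of a group, without regard to sign.

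The other tested probe set of Nr4a3, 1393389_at, had signals of 970.9 and 967.4 in stressed rats, against 895.2 and 953.9 in nonstressed controls. Here the stressed arrays were slightly higher, with a log2 difference of 0.07 that did not pass (95% interval -0.06 to 0.20, adjusted p = 0.406 from limma). The intervals of the 2 probe sets did not overlap, although the difference between the probe sets was itself not tested. The last probe set of Nr4a3, 1369217_at, was dim at 22.0 and 32.8 in stressed rats, against 19.3 and 30.3 in nonstressed controls, and these groups overlapped. The files do not say which part of the Nr4a3 transcript each probe set reads.

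Nr4a1 encodes the nuclear receptor Nur77, of the same family. Signals of 1386935_at were 442.5 and 439.8 in stressed rats, against 369.5 and 397.2 in nonstressed controls. The stressed arrays were nearly equal and both above the controls. The log2 difference was 0.20 (standard error 0.08, 95% interval 0.03 to 0.38), which did not pass (adjusted p = 0.0903 from limma).

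Arc was lower in stressed rats at its only probe set. Signals of 1387068_at were 507.2 and 488.0 in stressed rats, against 592.7 and 607.6 in nonstressed controls. The arrays within each group differed by far less than the groups did. The log2 difference was -0.27 (standard error 0.06, 95% interval -0.42 to -0.12, adjusted p = 0.0209 from limma), or 0.829 times the control level. The call was lost in 3 of the 4 removals of an array, with adjusted p = 0.078 when stressed replicate 2 was left out, 0.0752 when control replicate 1 was left out and 0.111 for control replicate 2, while the log2 difference stayed between -0.30 and -0.24. It was also lost without the intensity trend (adjusted p = 0.0549 from limma).

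**Figure D2:**
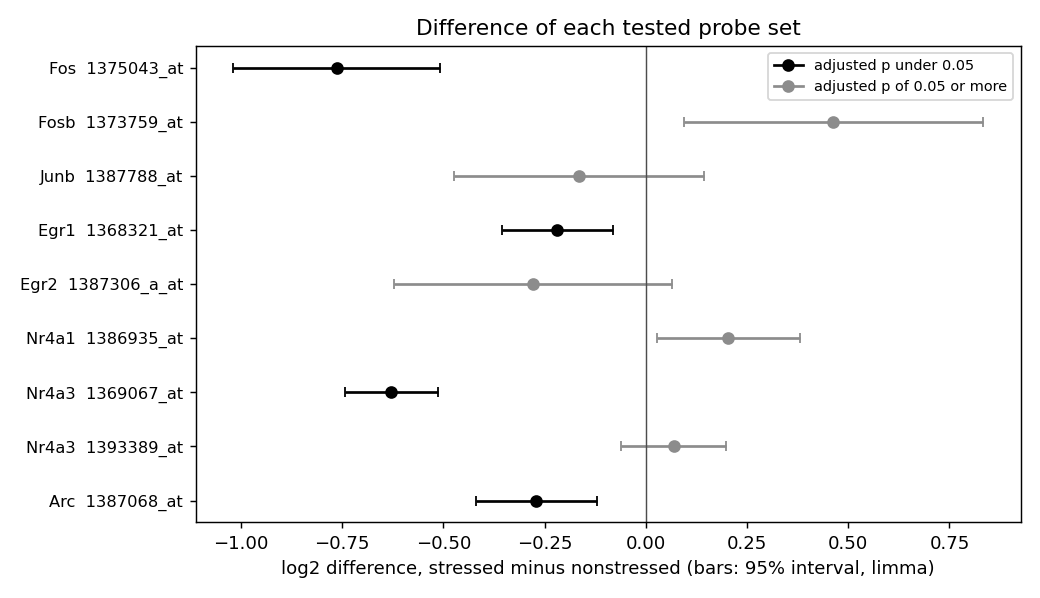
Log2 difference of each of the 9 tested probe sets, stressed minus nonstressed, with its 95% interval from limma (2 arrays a group). Black points passed adjusted p under 0.05, and the 4 of them (Fos, Egr1, Nr4a3 1369067_at and Arc) all lie below 0, while Fosb, Nr4a1 and Nr4a3 1393389_at lie above it.

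Within the families, some members passed and others did not. In the AP-1 family Fos fell, while Fosb and Junb, with log2 differences of 0.46 and -0.16, did not pass. In the Nr4a family a probe set of Nr4a3 fell and that of Nr4a1 had a positive difference. Control replicate 2 had the highest signal in 5 of the 6 probe sets with lower stressed signals, those of Fos, Egr1, Egr2, Nr4a3 and Arc, and control replicate 1 in that of Junb. The signs of all 9 differences were the same in every setting in which the probe set was tested.

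**Figure D3:**
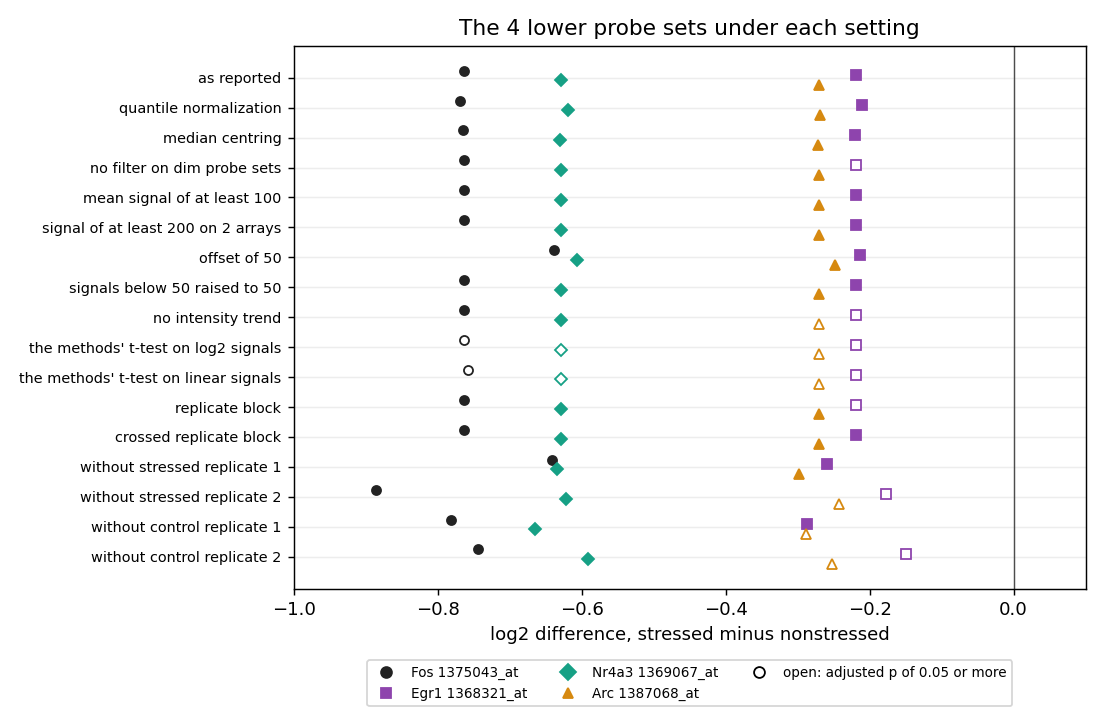
Log2 difference, stressed minus nonstressed, of the 4 probe sets that fell, for the reported fit and each of 16 other settings (rows), with filled symbols where adjusted p was under 0.05. Fos and Nr4a3 are open in both rows of the methods' t-test and filled in all others, and all symbols lie below 0.

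Further genes that neurons regulate by activity were taken from a list of 40, of which 37 had probe sets of their own. Of 35 tested probe sets of 26 of these genes, 8 fell (22.9%, against 11.8% of all tested) and 2 rose (5.71%, against 12%) at adjusted p under 0.05 from limma. The median log2 difference was -0.14. Among those that passed, the genes with the largest differences were Tiparp, Homer1, Rgs2, Bdnf, Dusp6 and Nr4a2, of which Nr4a2 rose. Over this list and the 2 described after it, 15 of the 26 calls were lost in at least 1 removal of an array.

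Homer1 encodes a postsynaptic scaffold that also has a short, activity-induced form. Its probe set 1370656_a_at had signals of 168.2 and 185.4 in stressed rats, against 319.1 and 390.0 in nonstressed controls. Stressed rats thus had 0.501 times the control level (adjusted p = 0.00153 from limma). The probe set 1370454_at fell by 0.39 on the log2 scale, a call kept in the removal of stressed replicate 1 but lost in the 3 other removals, and 1368318_at, at -0.17, did not pass (adjusted p = 0.0553 from limma). Which of them reads the short form is not stated in the files.

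Rgs2, a brake on G protein signalling, fell at both tested probe sets. Signals of 1368144_at were 178.8 and 199.7 in stressed rats, against 368.2 and 332.4 in nonstressed controls (log2 difference -0.89, adjusted p = 0.00133 from limma). The other, 1387074_at, fell by 0.24, a call lost without the intensity trend and in all removals of an array but that of stressed replicate 1. Bdnf, the neurotrophin whose transcription depends on CREB and Npas4, had signals of 403.3 and 404.8 in stressed rats, against 586.5 and 622.1 in nonstressed controls. It fell by 0.58 on the log2 scale. At both tested probe sets of Rgs2 and the tested one of Bdnf, both stressed arrays lay below both control arrays. The other probe set of Bdnf, 1368678_at, was too dim to be tested and went the other way. Its signals were 67.4 and 57.8 in stressed rats, against 50.1 and 48.7 in nonstressed controls.

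Dusp6 encodes a phosphatase of ERK, the kinase that drives many of these genes. Its probe set 1387024_at fell by 0.54 on the log2 scale, whereas 1377064_at and 1382778_at, at -0.20 and -0.19, did not pass. Tiparp, a mono-ADP-ribosyltransferase, fell by 2.31 at 1385407_at, with signals of 69.8 and 64.6 in stressed rats, against 346.5 and 321.6 in nonstressed controls. Its other tested probe set, 1374446_at, had a log2 difference of -0.20 that did not pass (adjusted p = 0.228 from limma).

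Nr4a2, the third gene of the Nr4a family, rose. Signals of 1369007_at were 625.1 and 602.3 in stressed rats, against 443.7 and 476.4 in nonstressed controls (log2 difference 0.42, adjusted p = 0.00522 from limma). Its other probe set, 1387410_at, had a log2 difference of 0.13 and did not pass. The remaining calls of the list, named after their values were seen, were those of the Krüppel-like factor genes Klf6, with a log2 difference of -0.42 at 1387060_at, and Klf2, with 0.27 at 1376569_at. The other tested probe set of each had the opposite sign, at 0.13 for Klf6 and -0.16 for Klf2, and did not pass. The call of Klf2 was lost in all 4 removals of an array, with the replicate block, with no filter and without the intensity trend, and that of Klf6 in all removals but that of stressed replicate 2. Other early response genes in the list did not pass, among them Ier2 (-0.59, adjusted p = 0.0903), Egr4 (0.02, adjusted p = 0.931) and Ptgs2 (-0.01, adjusted p = 0.921 from limma), also named after their values were seen.

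Most tested probe sets of the regulators that act upstream of immediate early genes did not pass. Of 34 tested probe sets of 24 genes, 5 fell (14.7%, against 11.8% of all tested) and 3 rose (8.82%, against 12%), shares near those over all tested probe sets. The median log2 difference was 0.03. Mef2c, a transcription factor that limits synapse number, fell by 1.08 at 1373410_at, with signals of 463.9 and 410.5 in stressed rats, against 959.7 and 889.9 in nonstressed controls. Its other tested probe set, 1372332_at, had a log2 difference of -0.02 and did not pass (adjusted p = 0.827 from limma). Mef2a fell by 0.39 at 1378360_at, and its 3 other tested probe sets, with log2 differences from -0.14 to 0.04, did not pass.

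Creb1 encodes CREB itself. Its probe set 1375655_at had signals of 124.0 and 80.8 in stressed rats, against 198.1 and 186.9 in nonstressed controls, a log2 difference of -0.94 (adjusted p = 0.0139 from limma). The stressed arrays differed widely, and the call was lost without the intensity trend and without either control replicate. Camk4, a kinase that phosphorylates CREB, had signals of 66.1 and 62.4 in stressed rats, against 117.7 and 108.3 in nonstressed controls at 1369752_a_at. Its log2 difference of -0.81 (adjusted p = 0.0104 from limma) was likewise lost without either control replicate.

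The coactivators of CREB that passed rose. Crebbp, which encodes the acetyltransferase CBP, had signals of 592.0 and 532.4 at 1399104_at in stressed rats, against 407.7 and 394.0 in nonstressed controls. It rose by a log2 difference of 0.49 (adjusted p = 0.00453 from limma). At 1382264_at the difference was 0.13 and was not called. The related Ep300 rose by 0.41 (adjusted p = 0.00218 from limma). Named after their values were seen, Crtc1, a further coactivator, rose by 0.35, a call lost without control replicate 2, and the kinase gene Rps6ka5 fell by 0.29 on the log2 scale at 1398582_at. The call of Rps6ka5 was lost in all removals of an array but that of stressed replicate 1, with the replicate block, with no filter and without the intensity trend. Its other tested probe set, 1382271_at, had a log2 difference of 0.26 and did not pass (adjusted p = 0.202 from limma). The tested probe set of Srf, 1388842_at, with a log2 difference of 0.11, and those of Elk1 and Elk4, all named after their values were seen, did not pass.

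Among dimer partners, corepressors and RNA decay factors, 12 probe sets of 9 genes were tested, of which 5 fell (41.7%, against 11.8% of all tested) and 3 rose (25%, against 12%). Their median log2 difference was -0.13. Nab1, a corepressor of Egr proteins, fell at both tested probe sets. Signals of 1393172_at were 547.5 and 543.1 in stressed rats, against 829.4 and 859.7 in nonstressed controls (log2 difference -0.63, adjusted p = 3.72e-04 from limma), and 1369409_at fell by 0.56. The call of 1369409_at was lost in all removals of an array but that of stressed replicate 1, with the replicate block and with no filter, while that of 1393172_at was kept in each of these. Nab2, named after its values were seen, had a log2 difference of 0.02 and did not pass.

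The Jun partners of Fos were lower in part. Jun fell by 0.45 on the log2 scale at 1389528_s_at, while its 2 other tested probe sets, at -0.02 and -0.30, did not pass. Affymetrix gives the suffix _s_at to probe sets that can match more than a single transcript. Jund fell by 0.35, with signals of 4356 and 4549 in stressed rats, against 6128 and 5264 in nonstressed controls. Its control arrays differed more than its stressed arrays. Both calls were lost without control replicate 1 and without the intensity trend.

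The remaining calls among the partners were small. Zfp36l1, which speeds the decay of AU-rich mRNAs, fell by 0.23, and the related Zfp36l2, named after its values were seen, rose by 0.19 on the log2 scale. Rxrb, a retinoid X receptor of the kind that pairs with Nr4a1, rose by 0.30, and Arnt2, a partner of Npas4, rose by 0.23. Each of these 4 calls was lost without control replicate 2, without stressed replicate 1 and without the intensity trend. Those of Zfp36l1, Zfp36l2 and Rxrb were also lost without control replicate 1, and that of Zfp36l2 also without stressed replicate 2. The calls of Rxrb and Zfp36l2 were further lost with no filter and with the replicate block.

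**Figure D4:**
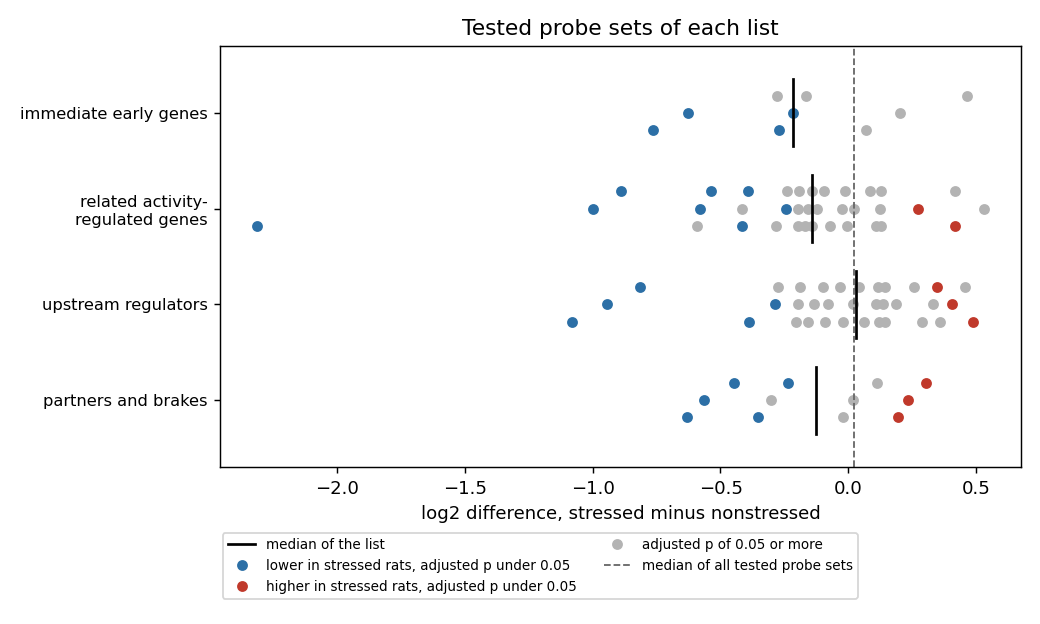
Log2 difference, stressed minus nonstressed, of every tested probe set in the 4 lists (points), with the median of each list (black bar) and of all tested probe sets (dashed line, 0.02). Blue points fell and red points rose at adjusted p under 0.05, and the medians are -0.22 for the immediate early genes, -0.14 for related genes, 0.03 for upstream regulators and -0.13 for partners and brakes.

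The arrays held the markers of hippocampal neurons, and some markers of other tissue differed between the groups. Signals of the granule cell marker Prox1 at 1376672_at were 642.5 and 656.8 in stressed rats, against 624.3 and 589.6 in nonstressed controls. The marker counts below stand beside 11.8% of all tested probe sets that fell and 12% that rose. Of 8 tested probe sets of pyramidal cell markers 1 fell, and of 4 of granule cell markers 1 rose. Of 9 of general neuronal markers 3 rose and 1 fell, of 7 of astrocyte markers 1 fell, of 3 of microglial markers 1 rose, and of 7 of oligodendrocyte markers 2 rose and 2 fell. Of 7 tested probe sets of choroid plexus markers 5 rose and none fell, and the signals summed over all 12 such probe sets were 14604 and 13428 in stressed rats, against 10299 and 12230 in nonstressed controls. The probe sets that rose were those of Cldn2 (log2 difference 1.20), F5 (1.17), Kcne2 (0.86), Aqp1 (0.75) and Folr1 (0.73). In all 7 tested probe sets both stressed arrays lay above both control arrays, against 34.9% of all tested probe sets. The summed signals were mostly Ttr, which did not pass (log2 difference 0.27). Kl was too dim to be tested and went the other way, at 19.0 and 9.7 in stressed rats, against 20.2 and 29.5 in nonstressed controls. Otx2 also had low signals, with no array above 122.7, and its tested probe set did not pass (log2 difference 0.20). Of 5 tested probe sets of endothelial markers 2 rose, and the signals summed over all 8 endothelial probe sets, dim ones included, were 3770 and 3741 in stressed rats, against 3290 and 3264 in nonstressed controls. The part of other tissue in the differences of the immediate early genes was not tested.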

How the data were processed

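Biotin-labelled cRNA from total hippocampal RNA was hybridized to Affymetrix rat genome arrays. The signal intensities were deposited by the authors on a linear scale, made with GCOS and scaled to a common target value per array, with no further normalization between arrays. Median signals were 79.6 to 82.3. The number of arrays limits the precision, and detection calls were not used here.

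Zeros were set to 0.1 and log2 signals taken. The 57 probe sets for Affymetrix controls did not enter. limma 3.58.1 in R 4.3.3 was fitted with an intensity trend to the 14791 probe sets whose signal reached 100 on 2 or more arrays, without a replicate block, and checked on simulated data. Figures were drawn with matplotlib 3.10.9. The members and lists were chosen with earlier results of these data known. Each list is counted by probe set with a single gene symbol. Named outside the members were, per list, the 6 genes with the largest difference among those passing. Other names are marked. The alternatives were 2 normalizations, 3 filters, 2 treatments of dim signals, moderation without trend, the methods' t-test, 2 thresholds, the replicate block and each array left out. A crossed pairing was added after seeing the data.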

Additional observations from a re-analysis of the deposited data

How the results depend on the processing

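The 9 tested member probe sets kept the sign of their difference in every setting in which they were tested. Counts of calls depended more on the setting. By the methods' t-test on log2 signals with Benjamini-Hochberg adjustment, 0 members passed, as did 0 on linear signals, and 0 passed in each of the 3 other lists on both scales. Over all probe sets it called 14 lower and 4 higher on log2 signals, and 12 lower and 4 higher on linear signals. Without the intensity trend, the calls of Arc and Egr1 were lost and Egr2 passed as lower, and 1147 probe sets were lower and 1000 higher, with 1 related gene probe set higher, 3 upstream regulator probe sets lower, and 2 partner probe sets lower and 0 higher. The study's thresholds were applied to p from limma, not from the study's t-test. At these thresholds 204 probe sets were lower and 32 higher. Among them were 0 members, 1 related gene lower and 0 higher, 1 upstream regulator lower and 0 higher, and 0 partners. At unadjusted p under 0.05 there were 3019 higher probe sets, with 2 members higher, 13 related lower and 4 higher, and 7 upstream higher. With no filter on dim probe sets, 1 related probe set and 1 partner probe set were higher, and with a signal of at least 200, 3 upstream probe sets were lower.

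With each array left out in turn, the count of lower probe sets ranged from 791 to 1342 and that of higher ones from 650 to 1148. Among lower calls the range was 2 to 4 for members, 5 to 8 for related genes, 2 to 5 for upstream regulators and 1 to 4 for partners, and among higher calls 0 for members, 1 to 2 for related genes, 2 to 3 for upstream regulators and 0 to 2 for partners. A lone array was taken to vary like the arrays of the other group. Some probe sets that had not passed changed sign. Mef2c 1372332_at had a log2 difference of 0.0017 after quantile normalization, and without 1 array it ranged from -0.082 to 0.042. The same ranges were -0.44 to 0.054 for Dusp6 1382778_at, -0.21 to 0.17 for Jun 1369788_s_at, -0.041 to 0.30 for Klf6 1388986_at, -0.42 to 0.15 for Mef2a 1392472_at and -0.071 to 0.33 for Nr4a2 1387410_at. Of these, Dusp6 1382778_at (adjusted p = 0.0384 from limma) and Mef2a 1392472_at (adjusted p = 0.00434 from limma) passed as lower in 1 removal each.

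Same-numbered arrays of the 2 groups share only a number, and their deviations from the group means correlated at -0.11. With the replicate number as a replicate block, 1391 probe sets were lower and 1281 higher, and 3 members, 8 related, 4 upstream and 4 partner probe sets were lower, while 0 members, 1 related, 3 upstream and 1 partner were higher. A crossed replicate block, chosen after seeing the data, called 4 members lower and 1 higher, and 5 upstream regulators higher. The causes of these changes were not tested.

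Arrays scaled to a common target cannot show a change in total RNA per cell, and dim probe sets carry little information, as in the 4 members below the signal minimum. With 2 pools a group, the number of arrays limits the precision of every value.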
